A study of Homo sapiens with 12 samples.

Results

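CD44 and 9 other genes used as markers of stem-type cells of the colon and of colon cancer were followed across 12 bead arrays. All arrays carried RNA of Caco-2, a cell line established from a human colorectal tumour. The members were taken by gene symbol and were CD44, PROM1, EPHB2, EPHB3, SOX9, OLFM4, ALCAM, LRIG1, EPCAM and MSI2, each with every probe that carried its symbol. The arrays held 17 such probes of 9 of the 10 genes, among 47314 probes in all. A probe was taken as detected where its detection p-value, which compares its signal with that of negative control beads, was under 0.05 on 3 or more of the 12 arrays. This left 14 probes of 7 member genes, among 22417 probes and 12566 genes. CD44, EPCAM and MSI2 kept 3 probes each, LRIG1 kept 2, and PROM1, SOX9 and ALCAM kept 1 each. EPHB3 and OLFM4 had probes that did not pass, and EPHB2 was not analysed here.

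The 4 groups of 3 arrays were a line labelled as carrying a short hairpin RNA (shRNA) against LRH-1, 96 hours after 5 µg/ml doxycycline, the same line without doxycycline, the control line 96 hours after 5 µg/ml doxycycline, and the control line without it. Doxycycline switches on the hairpin of the inducible pTripZ vector together with a red fluorescent marker. The control line is native by its title but a vector control with a non-silencing insert by its genotype label. Several hairpins are described, and the labels tie none of them to the arrays. Whether replicates came from separate cultures is not said in the labels, and p-values reflect the spread among these arrays alone, and that spread may be technical.

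CD44 is a transmembrane receptor for hyaluronan, made in many splice forms, and is a target of Wnt signalling at the base of the intestinal crypt. The stem cells there divide under Wnt signals, while EphB receptors and their ephrin ligands keep cells at their place along the crypt, and LRIG1 holds back signalling by the EGF receptor family. CD44, PROM1 (CD133), ALCAM (CD166) and EPCAM have been used as surface proteins for sorting tumour-initiating cells from colon cancers. LRH-1, a nuclear receptor whose gene is NR5A2, is itself expressed in intestinal crypts.

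Array medians lay between 251 and 386 intensity units, between 41.2% and 44.7% of probes were detected on each array, and replicates correlated at 0.985 to 0.992 across probes. Of 11 colon epithelial markers with a probe, 9 were detected on all 12 arrays, CLDN4 on 9 arrays and CDX1 on none. NR5A2 did not fall with doxycycline in the shRNA-labelled line. With doxycycline, its log2 signal on probe ILMN_1811303 rose by 0.50 in the shRNA-labelled line (adjusted p = 0.0178, limma) and by 0.89 in the control line (adjusted p = 0.000842, limma). The first of these calls was lost without replicate 1 or 2 of the untreated shRNA-labelled arrays (adjusted p = 0.0589 and 0.0573) and with median scaling (0.304). Between the lines with doxycycline NR5A2 was lower in the shRNA-labelled line, by a log2 difference of -0.38 (adjusted p = 0.0358, limma), a call lost in 5 of 12 fits that left out 1 array. Without doxycycline the lines differed by 0.0043 (adjusted p = 0.986, limma), and the difference of the responses was -0.38 (adjusted p = 0.313, limma). On its other detected probe, ILMN_2366654, NR5A2 rose by 0.50 in the shRNA-labelled line (adjusted p = 0.0324, limma) and by 0.59 in the control line (adjusted p = 0.0119, limma). On that probe the lines with doxycycline differed by -0.27 (adjusted p = 0.172, limma) and the responses by -0.09 (adjusted p = 0.882, limma), neither of them called. The line is therefore called the shRNA-labelled line throughout, and no direction given here is read as an effect of losing LRH-1. Of 10 fibroblast markers, 5 (COL1A1, LUM, PDGFRA, PDGFRB and VIM) were detected on all 12 arrays and COL1A2, FAP and THY1 on none. The log2 of their summed signal was 12.59 to 12.77 with doxycycline, against 12.16 to 12.26 without it, in the shRNA-labelled line. In the control line it was 12.74 to 12.96 with doxycycline, against 12.13 to 12.27 without it. It was thus higher with doxycycline in both lines, and the part of this in the results below was not tested. Of 5 blood markers with a probe, CD68 and CD14 were detected on all 12 arrays, CD3E on 1, and the defining markers PTPRC and HBB on none. The log2 of the summed signal of the blood list was 12.12 to 12.18 with doxycycline, against 12.45 to 12.58 without it, in the shRNA-labelled line. In the control line it was 12.48 to 12.50 with doxycycline, against 12.68 to 12.91 without it, so it was lower with doxycycline in both lines, and its part in the results was not tested. Of 5 endothelial markers, PECAM1 was detected on all 12 arrays, KDR on 1, and CDH5, VWF and CLDN5 on none.

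With doxycycline CD44 was higher in the shRNA-labelled line and lower in the control line, on both of its probes that were detected on all 12 arrays. Of these 4 differences 3 passed the test, and the largest fold, in the shRNA-labelled line on the brightest probe, was 1.81. Levels are background-corrected, quantile-normalized log2 signals, which can be compared between arrays for 1 probe but not between probes. On the brightest CD44 probe, ILMN_1803429, annotated to transcript NM_001001391, the log2 signals were 13.01, 13.30 and 12.89 in the shRNA-labelled line with doxycycline, against 12.24, 12.22 and 12.17 without it. All 3 arrays with doxycycline lay above all 3 arrays without it. In the control line the same probe gave 11.87, 12.56 and 12.29 with doxycycline, against 12.76, 13.00 and 12.58 without it. There the order was the other way round, and the groups came within a narrow gap of each other. Before normalization, the deposited intensities of this probe did not overlap in the shRNA-labelled line, at 7385, 8643 and 8713 with doxycycline, against 5032, 4175 and 5483 without it. They did overlap in the control line, at 4055, 7696 and 3902 with doxycycline, against 8755, 7657 and 7272 without it.

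On ILMN_1803429 CD44 rose by 0.85 in the shRNA-labelled line, as a log2 difference (SE 0.18, adjusted p = 0.0138, limma over all 22417 probes). The difference in the control line was -0.54 (SE 0.18, adjusted p = 0.0727, limma), which did not pass the threshold of 0.05. CD44 was the only 1 of the 7 member genes tested that was called in the shRNA-labelled line, judged by the brightest probe of each gene, while 8.93% of all genes were called there, 5.32% higher and 3.6% lower. The call of this rise rested on single arrays. Without replicate 2 of the shRNA-labelled line with doxycycline the adjusted p was 0.0624 in limma. Without replicate 3 of that line without doxycycline it was 0.0524. The call was also lost, with a difference of 0.34 and an adjusted p of 0.194, when the CD44 probes were averaged, the dim ILMN_1778625 included.

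The second CD44 probe, ILMN_2348788, annotated to NM_001001392, gave log2 signals of 9.89, 10.49 and 9.88 in the shRNA-labelled line with doxycycline, against 9.52, 9.26 and 8.91 without it. The control line gave 8.77, 9.46 and 8.96 with doxycycline, against 9.90, 9.81 and 9.81 without it. Again the groups did not overlap in either line, and the order was reversed between the lines. CD44 rose by 0.85 on this probe in the shRNA-labelled line (SE 0.22, adjusted p = 0.0361, limma). It fell by 0.77 in the control line (SE 0.22, adjusted p = 0.0416, limma). Both calls depended on single arrays. Leaving out 1 array ended the call of the rise in 5 of 12 fits, with adjusted p-values up to 0.140. It ended the call of the fall in 7 of 12 fits, with adjusted p-values up to 0.126. Neither difference changed its sign in these fits.

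The third CD44 probe, ILMN_1778625, annotated to NM_000610, went against the other 2. It was detected on the 3 arrays of the shRNA-labelled line without doxycycline and on no other array. Its log2 signals were 6.15, 6.13 and 6.10 in that line with doxycycline, against 6.95, 7.08 and 6.39 without it. The control line gave 6.08, 6.31 and 6.15 with doxycycline, against 6.35, 6.00 and 6.23 without it. The signal was therefore not well above background in 3 of the 4 groups and weak in the remaining one. On this probe CD44 was at least 1.25-fold lower with doxycycline in the shRNA-labelled line (adjusted p = 0.0306, limma), a bound taken from the lowest detected signal of each array. The probe passed the detection filter only through the untreated group where it was high. This p-value therefore follows in part from the filter and is no support. The call was lost under 6 of 10 other settings, at adjusted p-values between 0.0529 and 1, and without any 1 of the 3 arrays with doxycycline, at 0.0640 to 0.0904. The annotation names a different CD44 transcript for each probe, and which splice forms each probe reads was not tested.

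**Figure D1:**
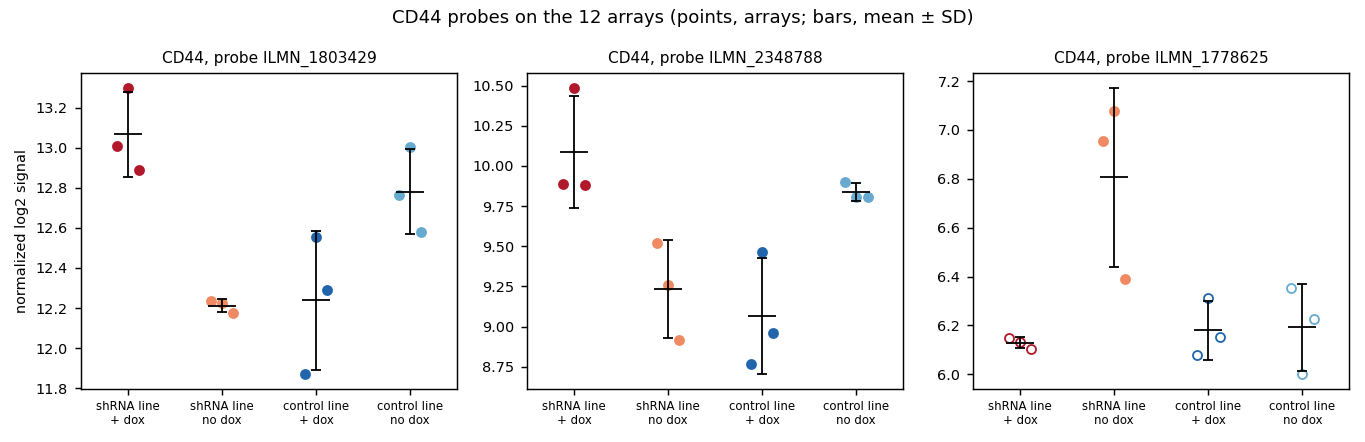
Normalized log2 signal (vertical axes, a separate scale for each panel) of the 3 CD44 probes on the 12 arrays by group. Points are arrays, filled where the group was detected on all 3 arrays and open where it was not, and bars are means ± SD (n = 3). On ILMN_1803429 and ILMN_2348788 the shRNA-labelled line is high with doxycycline and the control line is high without it, while ILMN_1778625 stands above background only in the shRNA-labelled line without doxycycline.

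Between the lines, both bright probes of CD44 passed the test with doxycycline. CD44 was higher in the shRNA-labelled line than in the control line by 0.83 on ILMN_1803429 (SE 0.18, adjusted p = 0.00802, limma) and by 1.02 on ILMN_2348788 (SE 0.22, adjusted p = 0.00779, limma). Both calls held in each of the 12 fits that left out 1 array. Without doxycycline, CD44 differed by -0.57 on ILMN_1803429 (adjusted p = 0.0614, limma) and by -0.61 on ILMN_2348788 (adjusted p = 0.0974, limma). The dim ILMN_1778625 ran the other way without doxycycline, where CD44 was at least 1.25-fold higher in the shRNA-labelled line (adjusted p = 0.0375, limma), a call lost under 9 of 10 other settings. That probe passed the filter only through the untreated shRNA-labelled arrays, so this p-value is no support either. With doxycycline, where neither line was detected, it gave -0.05 (adjusted p = 0.877, limma). These values share their arrays with the doxycycline comparisons and are not independent of them. In order of their means on ILMN_1803429, the groups were the shRNA-labelled line with doxycycline at 13.07 ± 0.21, the control line without it at 12.78 ± 0.21, the control line with it at 12.24 ± 0.35 and the shRNA-labelled line without it at 12.21 ± 0.03 (SD, n = 3). The arrays of the upper pair overlapped, as did those of the lower pair, and the pairs did not overlap with each other.

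The test of the difference between the 2 doxycycline responses did not pass after adjustment. On ILMN_1803429 the log2 response of CD44 was 1.40 higher in the shRNA-labelled line (95% interval 0.85 to 1.95, adjusted p = 0.0601, limma). On ILMN_2348788 it was 1.63 higher (95% interval 0.95 to 2.30, adjusted p = 0.0696, limma), and on the dim ILMN_1778625 it was -0.67 (adjusted p = 0.249, limma). By this test 0 of the 7 member genes were called, where 0.159% of all genes were called and 0.0477% were called higher. An unadjusted p under 0.05 was reached by 1 of the 7, CD44, and by 14.7% of all genes. The unadjusted p of CD44 on ILMN_1803429 was 0.000144. Under 8 of the other settings, among them the authors' deposited values (1.39, adjusted p = 0.0473), the difference on ILMN_1803429 passed. Each of these settings also called more of all probes. On the authors' values 22 were called higher and 30 lower, against 9 and 19 in the main fit. Of the fits that left out 1 array, only the one without replicate 3 of the untreated control line called CD44.

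The proximal promoter of CD44 is shown because CD44 carries the main finding. RefSeq on build GRCh38.p14 lists 1 start site, and the window runs from 250 bases before it to 50 after it, at chr11:35138921-35139220 on the plus strand. Capitals would mark matches to the letters CTTTGAT or CTTTGAA, bound by TCF/LEF factors of the Wnt pathway, and CAAGGTC or CAAGGCC, the core letters bound by LRH-1, on either strand.
CD44 promoter: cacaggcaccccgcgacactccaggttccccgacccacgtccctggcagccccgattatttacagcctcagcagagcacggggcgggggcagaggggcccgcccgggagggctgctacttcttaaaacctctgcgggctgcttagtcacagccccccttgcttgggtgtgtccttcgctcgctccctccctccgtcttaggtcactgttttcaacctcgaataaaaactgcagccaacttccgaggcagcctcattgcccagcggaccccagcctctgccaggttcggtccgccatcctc
None of these letters is in this window, which has a G and C content of 63.3%, and this says nothing of either factor elsewhere at the gene. Of 35116 promoters of the same length, 6.86% held one of the TCF/LEF words and 9.01% held one of the LRH-1 words.

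LRIG1, a membrane protein that restrains EGF receptor family members, was lower with doxycycline in the control line and higher in the shRNA-labelled line than in the control line. On its brightest probe, ILMN_2128795, the log2 signals were 12.17, 12.24 and 12.17 in the shRNA-labelled line with doxycycline, against 12.44, 12.37 and 12.52 without it. The control line gave 11.57, 11.49 and 11.35 with doxycycline, against 12.07, 11.92 and 12.02 without it. In each line all arrays with doxycycline lay below those without it, and the 3 arrays of the control line with doxycycline were the lowest of all 12. LRIG1 fell by 0.53 in the control line (SE 0.10, adjusted p = 0.00646, limma), the 1 member gene of 7 called there, where 13.2% of all genes were called, 6.43% higher and 6.72% lower. The call of this fall was kept in all 12 fits that left out 1 array, but not with median scaling in place of quantile normalization (-0.57, adjusted p = 0.106, limma). In the shRNA-labelled line the difference was -0.25 (SE 0.10, adjusted p = 0.165, limma), and the difference between the responses, 0.28 (95% interval -0.02 to 0.59, adjusted p = 0.419, limma), did not pass.

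The other LRIG1 probe, ILMN_1707342, gave 11.26, 11.33 and 11.50 in the shRNA-labelled line with doxycycline, against 11.61, 11.68 and 11.61 without it. Arrays of the control line gave 10.61, 10.85 and 10.71 with doxycycline, against 11.38, 11.48 and 11.49 without it. The order of the groups under doxycycline was the same as on the brighter probe. LRIG1 fell by 0.72 on it in the control line (adjusted p = 0.00167, limma) and differed by -0.27 in the shRNA-labelled line (adjusted p = 0.146, limma). Between the lines with doxycycline, LRIG1 was higher in the shRNA-labelled line by 0.72 on ILMN_2128795 (adjusted p = 0.000556, limma) and by 0.64 on ILMN_1707342 (adjusted p = 0.00161, limma). Without doxycycline it was higher by 0.44 on ILMN_2128795 (adjusted p = 0.0158, limma), while ILMN_1707342 gave 0.19 (adjusted p = 0.278, limma). The baseline call on ILMN_2128795 was lost without replicate 3 of the untreated shRNA-labelled line (adjusted p = 0.0646), without replicate 2 of the untreated control line (0.0567) and with median scaling (0.206).

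RefSeq lists 4 LRIG1 start sites on the minus strand of chromosome 3. The farthest upstream window, chr3:66501072-66501371, has a G and C content of 69.3%, and the farthest downstream window, chr3:66405718-66406017, is the 1 of the 4 with a match, which is why both are shown. The capitals mark the LRH-1 core letters CAAGGCC read on the opposite strand, at position -29 from the start site.
LRIG1 promoter, upstream start: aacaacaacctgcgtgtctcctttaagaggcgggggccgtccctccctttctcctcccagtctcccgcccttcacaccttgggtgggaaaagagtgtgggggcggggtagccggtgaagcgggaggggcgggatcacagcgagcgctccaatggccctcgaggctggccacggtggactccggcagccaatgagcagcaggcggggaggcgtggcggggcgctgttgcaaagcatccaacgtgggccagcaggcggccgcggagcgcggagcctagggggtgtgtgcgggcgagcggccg
LRIG1 promoter, downstream start: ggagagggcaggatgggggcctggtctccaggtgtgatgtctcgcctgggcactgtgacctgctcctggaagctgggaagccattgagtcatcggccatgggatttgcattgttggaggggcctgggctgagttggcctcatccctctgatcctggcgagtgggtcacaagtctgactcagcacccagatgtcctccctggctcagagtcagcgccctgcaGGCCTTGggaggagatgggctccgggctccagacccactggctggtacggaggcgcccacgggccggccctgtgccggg
The match is a description of letters and not a binding site shown by these data. Among the 16 windows held for 8 member genes, 3 held a match, 1 each of PROM1, MSI2 and LRIG1. PROM1 and MSI2 each had 1 window with both a TCF/LEF word and an LRH-1 word, and neither gene was called in any comparison.

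SOX9, a transcription factor active in crypt base cells, was detected on every array and called in 1 of the 5 comparisons. Its log2 signals on ILMN_1805466 were 12.59, 12.62 and 12.81 in the shRNA-labelled line with doxycycline, against 12.67, 12.78 and 12.74 without it. Signals of the control line were 12.83, 12.82 and 12.84 with doxycycline, against 13.09, 13.02 and 13.06 without it. The untreated control line stood above the other 3 groups. SOX9 was lower in the shRNA-labelled line than in the control line without doxycycline by a log2 difference of -0.33 (SE 0.09, adjusted p = 0.0456, limma). That call was lost in 10 of the 12 fits that left out 1 array, at adjusted p-values up to 0.133. Doxycycline in the control line gave -0.23 (adjusted p = 0.149, limma), although those groups did not overlap, and in the shRNA-labelled line it gave -0.05 (adjusted p = 0.811, limma).

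In the comparison of the lines with doxycycline, 2 of the 7 member genes, CD44 and LRIG1, were called and both were higher, against 19.7% of all genes called, 9.44% higher and 10.2% lower. Without doxycycline, 2 of the 7 were called, LRIG1 higher and SOX9 lower, against 13.1% of all genes called, 5.98% higher and 7.15% lower. Counted by probes, 3 of the 14 member probes were called for doxycycline in the shRNA-labelled line, where 7.49% of all probes were, and 3 in the control line, where 11.3% were. All 3 in the shRNA-labelled line were probes of CD44, 2 of them higher and the dim ILMN_1778625 lower. The probe counts were 5 of 14 between the lines with doxycycline and 3 of 14 without it, against 16.5% and 11.1% of all probes. ILMN_1778625 passed the filter only through the untreated shRNA-labelled arrays. It is 1 of the 3 called without doxycycline and 1 of the 3 called for doxycycline in that line. With so few members, 1 gene moves these shares by 14.3 percentage points. The median log2 difference of the 7 genes was -0.01 for doxycycline in the shRNA-labelled line, beside -0.02 over all genes. For the control line it was -0.23, beside -0.01 over all genes. Groups did not overlap for 3 of the 7 genes under doxycycline in the shRNA-labelled line and for 4 in the control line, against 30.5% and 33.7% of all genes. Between the lines they did not overlap for 5 of the 7 genes with doxycycline and for 3 without it, against 39.4% and 35.4% of all genes.

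**Figure D2:**
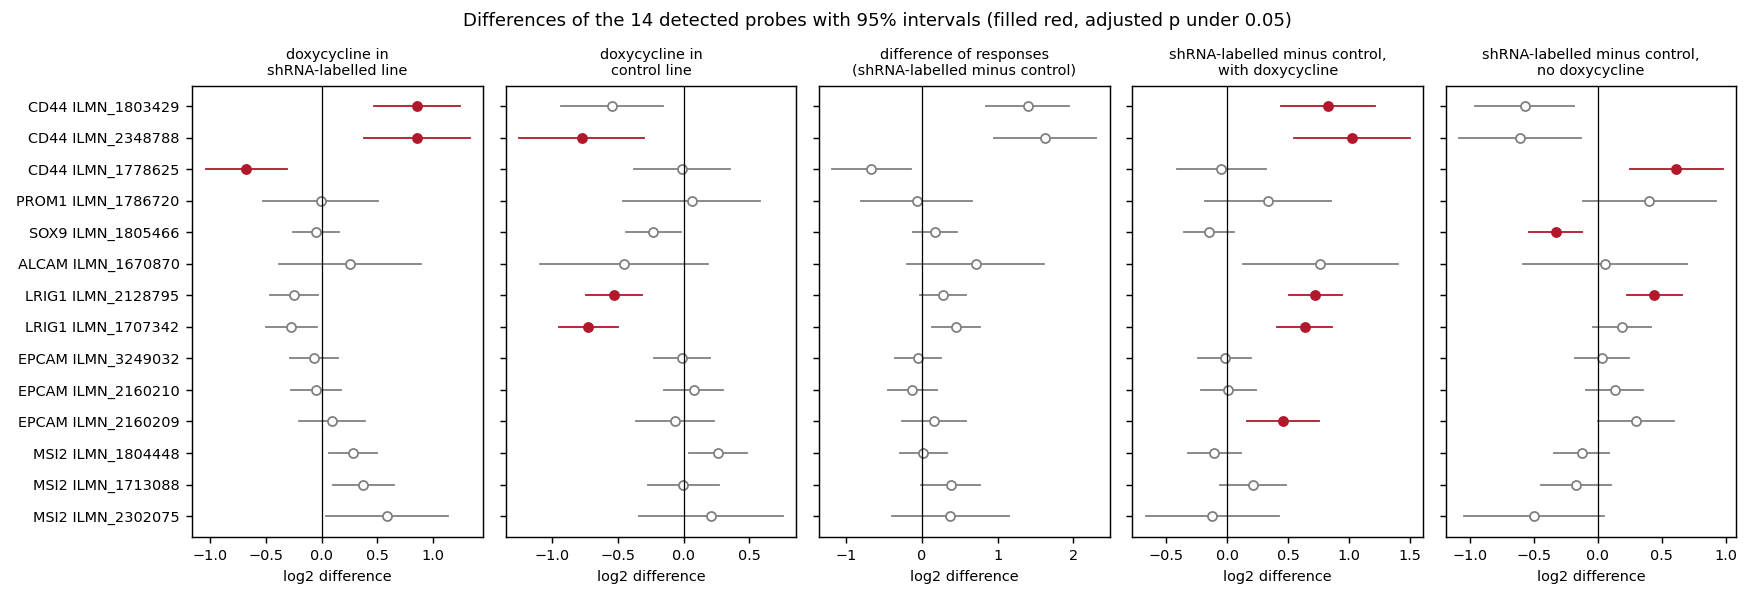
Log2 differences (horizontal axes, a separate scale for each panel) of the 14 detected member probes in the 5 comparisons, with 95% intervals. Red filled points passed an adjusted p of 0.05 over all probes and open points did not. The bright CD44 probes lie right of 0 in the shRNA-labelled line and left of 0 in the control line under doxycycline, both LRIG1 probes lie left of 0 in both lines, and PROM1 and MSI2 have no filled point.

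PROM1, the pentaspan membrane protein known as CD133, was detected on all 12 arrays and no comparison called it. Its log2 signals on ILMN_1786720 averaged 13.75 ± 0.40 in the shRNA-labelled line with doxycycline and 13.76 ± 0.28 without it (SD, n = 3 each). Control line arrays averaged 13.42 ± 0.15 with doxycycline and 13.36 ± 0.40 without it (SD, n = 3 each). Doxycycline differences were -0.01 (95% interval -0.53 to 0.51) in the shRNA-labelled line and 0.06 (95% interval -0.46 to 0.58) in the control line. The shRNA-labelled line was 0.33 higher with doxycycline (adjusted p = 0.388, limma) and 0.40 higher without doxycycline (adjusted p = 0.308, limma), and the groups overlapped in both.

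EPCAM, the epithelial adhesion molecule, was detected on all 12 arrays by each of its probes. Its 3 probes covered log2 signals of 14.50 to 14.75 on ILMN_3249032, 14.37 to 14.66 on ILMN_2160210 and 13.26 to 13.98 on ILMN_2160209. Deposited intensities of the first were 21630 to 31782, close to the highest intensity of each array, which lay between 25822 and 37494, and saturation of the signal was not tested. The 2 brighter probes were called in no comparison, with differences between -0.12 and 0.13. On ILMN_2160209 EPCAM was 0.46 higher in the shRNA-labelled line than in the control line with doxycycline (SE 0.14, adjusted p = 0.0400, limma). That call was lost in 7 of 12 fits that left out 1 array, at adjusted p-values up to 0.140.

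MSI2 is an RNA-binding protein of the Musashi family, which is active in intestinal stem cells. On its brightest probe, ILMN_1804448, the log2 signals were 10.33, 10.33 and 10.21 in the shRNA-labelled line with doxycycline, against 9.95, 10.03 and 10.04 without it. Signals of the control line were 10.45, 10.38 and 10.36 with doxycycline, against 10.13, 10.01 and 10.27 without it. The groups did not overlap in either line. The differences of 0.28 and 0.26 did not pass the test over all probes (adjusted p = 0.117 and 0.118, limma). ILMN_1713088 gave 0.38 in the shRNA-labelled line (adjusted p = 0.0943, limma) and -0.0019 in the control line (adjusted p = 0.995, limma). The dim ILMN_2302075 gave 0.58 (adjusted p = 0.198, limma) and 0.21 (adjusted p = 0.657, limma), with overlapping groups in both lines.

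ALCAM, an adhesion molecule of the immunoglobulin family, was close to the detection limit. Its probe ILMN_1670870 was detected on 9 arrays, on all 3 arrays of each shRNA-labelled group, on 1 of 3 in the control line with doxycycline and on 2 of 3 without it. The log2 signals were 7.12, 7.29 and 6.90 in the shRNA-labelled line with doxycycline, against 6.20, 6.57 and 6.24 in the control line with doxycycline. These groups did not overlap, and the difference of 0.77 (95% interval 0.13 to 1.41) had an adjusted p of 0.101 in limma. Without doxycycline the control line itself spread from 5.97 to 7.44, and the difference from the shRNA-labelled line was 0.05 (adjusted p = 0.932, limma).

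EPHB3, the receptor for B-type ephrins, was detected on 2 arrays, 1 of the untreated shRNA-labelled line and 1 of the untreated control line, with intensities of 226 to 446 across the arrays. OLFM4, a secreted glycoprotein of crypt base cells, was detected on none of the 12 arrays by either of its 2 probes. Neither gene was tested.

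**Figure D3:**
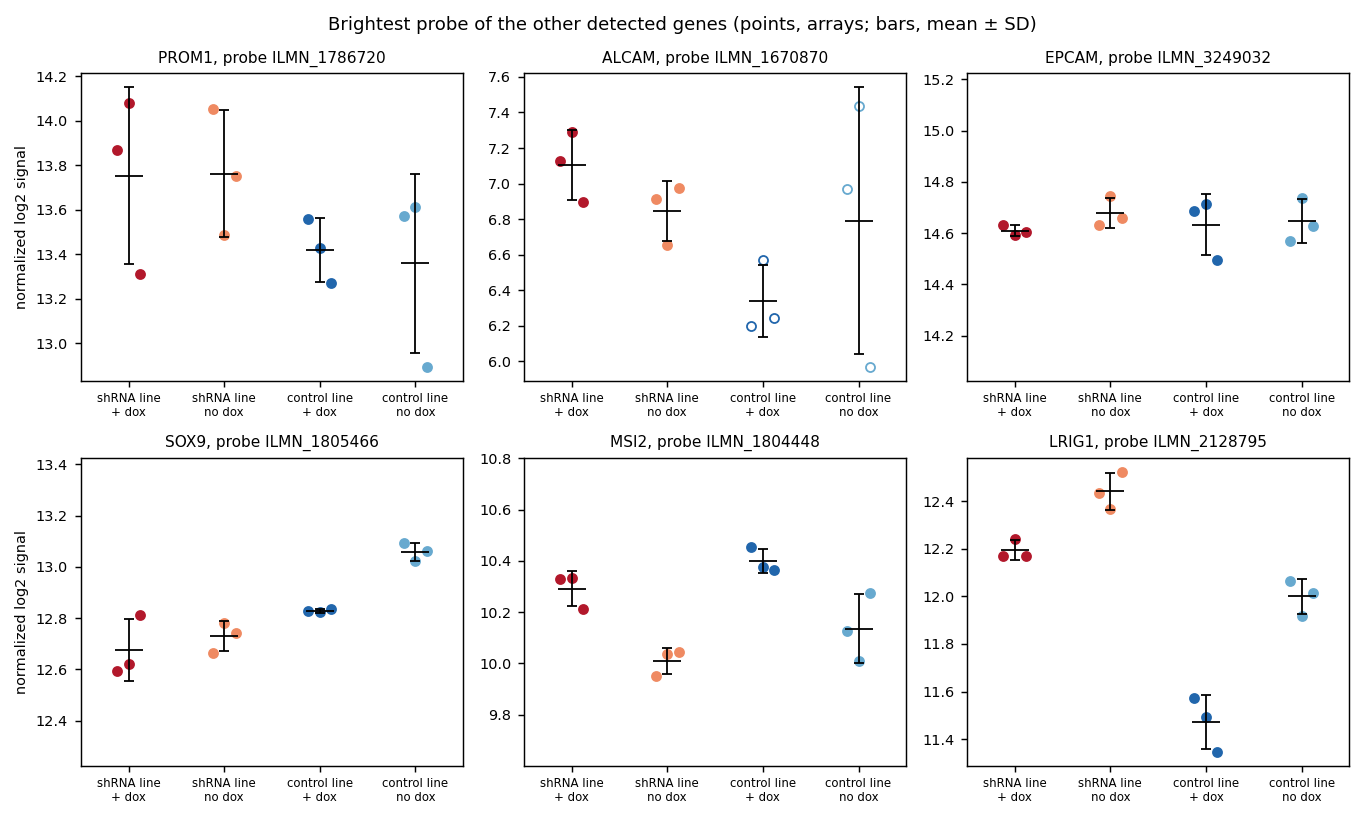
Normalized log2 signal (vertical axes, a separate scale for each panel) of the brightest probe of PROM1, ALCAM, EPCAM, SOX9, MSI2 and LRIG1 on the 12 arrays by group. Points are arrays, filled where the group was detected on all 3 arrays and open where it was not, and bars are means ± SD (n = 3). LRIG1 is lowest in the control line with doxycycline, SOX9 is highest in the control line without it, and the PROM1 and EPCAM groups overlap.

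The genes whose pattern was most like CD44 were sought among 10383 genes detected on all 12 arrays, by Pearson's r with ILMN_1803429 over the arrays. They were BIRC6, a large ubiquitin ligase of the inhibitor of apoptosis family, at 0.951, ENO2, a glycolytic enolase, at 0.918, MAL2, a membrane protein of apical transport, at 0.910, CCNT2, a cyclin of transcription elongation, at 0.902, and ANTXR2, an anthrax toxin receptor, at 0.894. The points share 4 groups of 3 arrays, so r mostly reflects the order of 4 group means. Having been picked for this pattern on these arrays, they are described here without a test. BIRC6 averaged 10.72 with doxycycline, against 10.21 without it, in the shRNA-labelled line, and 10.20 with it, against 10.55 without it, in the control line. ANTXR2 averaged 8.89 with doxycycline, against 8.39 without it, in the shRNA-labelled line, and 8.33 with it, against 8.79 without it, in the control line.

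Of 21 genes for CD44 ligands, partners and processing, 14 were tested. With doxycycline 2 rose and 0 fell in the shRNA-labelled line, and 0 were called in the control line, where 5.32% of all genes rose in the shRNA-labelled line and 13.2% were called in the control line. HAS3, which makes hyaluronan, averaged 8.77 with doxycycline, against 7.73 without it, and rose by 1.04 (adjusted p = 0.00201, limma). VCAN, a proteoglycan that binds hyaluronan, averaged 8.01 with doxycycline, against 6.71 without it, where 2 of 3 arrays detected it, and rose by 1.30 (adjusted p = 0.00310, limma). The list's median was 0.06 in the shRNA-labelled line, against 0.12 in the control line. HAS3 in the control line averaged 7.93 with doxycycline, against 8.02 without it, and VCAN was detected on none of the 6 arrays. VCAN passed the detection filter only through arrays of the shRNA-labelled line, and would not have passed without those given doxycycline. Its p-values for doxycycline in that line and against the control line therefore follow in part from the filter and are no support. VCAN is 1 of the 2 genes counted as risen there. With doxycycline VCAN was at least 2.92-fold higher in the shRNA-labelled line than in the control line (adjusted p = 4.22e-05, limma). HAS3 was 0.84 higher there (adjusted p = 0.00279, limma). ADAM10, a protease that sheds the CD44 ectodomain, differed by -0.39 (adjusted p = 0.0411, limma), a call lost in 7 of the 12 fits that left out 1 array.

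Of 15 genes of the ephrin system besides EPHB2 and EPHB3, 9 were tested. EFNB1, an ephrin ligand of EphB receptors, rose with doxycycline by 1.08 in the shRNA-labelled line (adjusted p = 0.00214, limma) and by 0.68 in the control line (adjusted p = 0.0182, limma). EFNB2 rose by 0.52 in the shRNA-labelled line (adjusted p = 0.0101, limma), and 2 of the 9 rose and 0 fell there, where 5.32% of all genes rose and 3.6% fell. Under doxycycline 2 rose in the control line, EFNB1 and EPHA2 (0.40, adjusted p = 0.0386), and 1 fell, EPHB4 (-0.62, adjusted p = 0.0466, limma), where 6.43% of all genes rose and 6.72% fell. These counts moved with single arrays. In the shRNA-labelled line the count was 1 without its untreated replicate 3. The control line count was 0 without its untreated replicate 1, and 1 without any other of its arrays or without replicate 3 of the untreated shRNA-labelled arrays. Each of these fits also called fewer of all probes, except the one without replicate 3 of the untreated control arrays. Medians were 0.18 in the shRNA-labelled line, against 0.01 in the control line. The receptor EPHA4 was higher in the shRNA-labelled line than in the control line, by 1.26 with doxycycline (adjusted p = 0.000322, limma) and by 1.15 without it (adjusted p = 0.00109, limma).

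Several crypt stem cell and Wnt genes were called lower with doxycycline in both lines, and none was called higher. Of 21 listed genes 17 were tested. In the shRNA-labelled line 0 were called higher and 5 lower, and in the control line 0 higher and 10 lower. Of all genes, 5.32% rose and 3.6% fell in the shRNA-labelled line, against 6.43% and 6.72% in the control line. The medians were -0.20 and -0.68. NKD1, a feedback inhibitor of Wnt signalling, fell by 1.03 in the shRNA-labelled line (adjusted p = 0.00214, limma) while in the control line it fell by 1.49 (adjusted p = 0.000360, limma). ASCL2, a transcription factor of crypt stem cells, fell by 0.51 in the shRNA-labelled line (adjusted p = 0.00946, limma) while in the control line it fell by 1.02 (adjusted p = 0.000303, limma). TNFRSF19 (-0.56 and -0.68), ZNRF3 (-0.64 and -0.86) and SP5 (-0.55 and -1.22) also fell in the shRNA-labelled and the control line, in that order, so the 5 genes that fell in the first were among the 10 of the second. The call of SP5 in the shRNA-labelled line was lost in 9 of 12 fits that left out 1 array. AXIN2 fell by 0.75 in the control line and differed by -0.22 in the shRNA-labelled line, where it was not called. The count in the shRNA-labelled line was 3 without replicate 1 or 2 of the treated arrays or replicate 2 or 3 of the untreated arrays, and 2 with median scaling or with the compared groups fitted alone. Each of these fits also called fewer of all probes in that line. No gene of the list was called for the difference between the responses, where 0.159% of all genes were called. The median of this difference was 0.47 in the list. LGR5, the stem cell receptor, was detected on all 6 arrays of the control line and on 1 array of the shRNA-labelled line. With doxycycline it was at least 1.47-fold lower in the shRNA-labelled line (adjusted p = 0.0173, limma), a call lost without replicate 2 of either treated group. Its probe would not have passed the detection filter without the control line arrays. This p-value therefore follows in part from the filter and is no support.

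**Figure D4:**
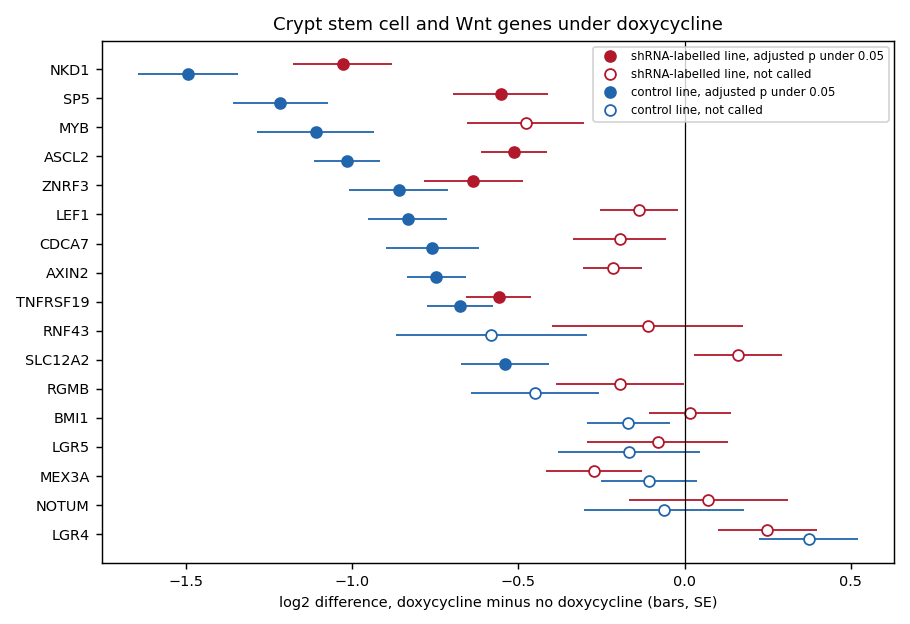
Log2 difference with doxycycline (horizontal axis, bars are SE) of the 17 tested crypt stem cell and Wnt genes, red for the shRNA-labelled line and blue for the control line. Filled points passed an adjusted p of 0.05. All filled points, 5 red and 10 blue, lie left of 0.

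Other colon cancer stem-type markers were called in both directions. Of 18 tested of 20, 4 rose and 1 fell in the shRNA-labelled line, and 0 rose and 1 fell in the control line, with medians of 0.17 and -0.04. Of all genes, 5.32% rose and 3.6% fell in the shRNA-labelled line, and 6.43% rose and 6.72% fell in the control line. TSPAN8, a tetraspanin, averaged 14.23 in the shRNA-labelled line with doxycycline, against 13.19 without it, and rose by 1.04 (adjusted p = 0.000276, limma). TSPAN8 in the control line averaged 14.63 with and without doxycycline, and the difference between the responses was 1.03 (adjusted p = 0.0259, limma), the 1 gene of this list called for it. By this test 0.159% of all genes were called. The call of TSPAN8 was lost in 10 of the 12 fits that left out 1 array. Deposited intensities of the TSPAN8 probe in the control line were 22288 to 31628 with doxycycline and 23592 to 26034 without it, at 70.6% to 91.4% of the highest intensity of their array. Saturation was not tested there, so the size of the difference between the responses is uncertain. KLF4, a transcription factor, rose by 1.06 (adjusted p = 0.00308, limma), CD9, a tetraspanin, by 0.64 (adjusted p = 0.00623, limma) and ITGA6, the laminin receptor subunit, by 1.45 (adjusted p = 0.0113, limma) in the shRNA-labelled line. ALDH1A1, an aldehyde dehydrogenase used as a stem cell marker, was the gene that fell in each line. It fell by 0.49 in the shRNA-labelled line (adjusted p = 0.0463, limma), a call lost in 11 of 12 fits that left out 1 array. In the control line it fell by 0.62 (adjusted p = 0.0133, limma), a call lost without replicate 3 of the treated or replicate 1 of the untreated control arrays. CD24, a surface glycoprotein often read together with CD44, was far lower in the shRNA-labelled line, by a log2 difference of -1.85 with doxycycline (adjusted p = 9.29e-07, limma) and -1.59 without it (adjusted p = 5.68e-06, limma).

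Of 11 genes of the EGF receptor family and its regulators, 7 were tested. HBEGF, a ligand of the receptor, fell by 0.43 with doxycycline in the shRNA-labelled line (adjusted p = 0.0368, limma), a call lost in 5 of 12 fits that left out 1 array, and 0 were called in the control line. Of all genes, 5.32% rose and 3.6% fell in the shRNA-labelled line, and 13.2% were called in the control line. The list medians were 0.22 and 0.02. LRIG3, a relative of LRIG1, was 1.46 higher in the shRNA-labelled line than in the control line with doxycycline (adjusted p = 0.000652, limma). Without doxycycline it was 0.91 higher (adjusted p = 0.0161, limma), a call lost without replicate 1 or 3 of the untreated shRNA-labelled arrays or replicate 1 or 2 of the untreated control arrays.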

How the data were processed

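The deposited non-normalized table gives a linear bead intensity and a detection p-value per probe on each array, per the file headers. The deposited value table holds log2-like values of the authors (median 6.64 over all arrays together), and served only as an alternative. Per the submitters' processing notes, the tools were GenomeStudio and lumi, with no role or version stated.

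Intensities were corrected with limma 3.58.1 in R 4.3.3 (neqc, offset 16, negative controls inferred from the detection p-values), taken to log2 and quantile-normalized. Probe symbols came from the platform annotation (30109 probes with 1 symbol, 8 with several, 17197 with none) and 30070 matched a RefSeq gene table. A means model of the 4 groups over 12 arrays was fitted, with 5 contrasts, two-sided moderated tests and Benjamini-Hochberg adjustment over 22417 probes. A gene was called by its brightest kept probe at an adjusted p under 0.05. In the counts of the lists and of all genes, rose and fell mean called higher and called lower. An undetected group gives only a bound. With 3 arrays against 3, an exact permutation test of 1 value cannot go below 0.1.

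The members, gene lists and alternatives were chosen with earlier results of these data known. The genes named were the members, NR5A2, the 5 genes most like CD44 and genes of each list. Uncharacterised loci and Y-linked genes were passed over in choosing those 5. In each list the 2 to 4 genes of lowest adjusted p were to be named, or all called genes where 4 or fewer. The crypt and Wnt list and the other stem-type markers depart from this. There every gene called for doxycycline in the shRNA-labelled line is named, and AXIN2 is added to the crypt and Wnt list. SLC12A2 is named only where it was flagged. Line comparisons of the lists are given for chosen genes after their values were seen. Arrays with the same replicate number did not deviate together (r from -0.23 to 0.27 over 18 pairs), so the number was not used as a block. No pair of arrays held identical values. The number of arrays limits the precision.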

Additional observations from a re-analysis of the deposited data

Results flagged for a closer look

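The member probes, the genes of the lists and the 5 genes most like CD44 were searched for doxycycline effects that ran in opposite directions in the shRNA-labelled and the control line with no overlap of groups in either, or whose difference passed the test. For CD44 the difference of the responses, shRNA-labelled minus control line, was 1.40 on the log2 scale on ILMN_1803429 (adjusted p = 0.0601, limma) and 1.63 on ILMN_2348788 (adjusted p = 0.0696, limma). All arrays with doxycycline lay above those without it in the shRNA-labelled line and below them in the control line on both probes. The same held for SLC12A2, an ion cotransporter of crypt cells, at 0.70 (adjusted p = 0.148, limma). Separated groups were common under doxycycline, at 30.5% of all genes for the shRNA-labelled arrays and 33.7% for the control arrays. The share of all genes separated in opposite directions was not counted, so how unusual this pattern is was not tested. For TSPAN8 the difference was 1.03 (adjusted p = 0.0259, limma), lost in 10 of 12 fits that left out 1 array, with control line intensities near the highest of their arrays and saturation not tested. BIRC6 (0.85), CCNT2 (0.53) and ANTXR2 (0.96) also ran in opposite directions, and were chosen for following CD44 over these arrays, so no test is given for them.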

How the results depend on the processing

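Among 895 values of single member probes under other processing, 818 kept their side of the threshold, 44 were no longer called and 33 became called. The sign changed for 11, none of them called in either fit. Of 825 values without 1 array, 776 kept their side, 40 were no longer called and 9 became called, and the sign changed for 32, again none of them called, whose differences were at most 0.21 in size with all arrays. The count of member genes called for doxycycline in the shRNA-labelled line was 3 with array weights (CD44, LRIG1 and MSI2) and 0 with a fold limit of 1.5, against 1. For doxycycline in the control line it was 2, against 1, with no background correction, with normexp, with probes detected on all 12 arrays, with the replicate block and with trended robust variance (CD44 and LRIG1), and with no filter on dim probes (EPHB3 and LRIG1). It was 0 with median scaling and with the fold limit. For the difference of the responses it was 1, CD44, against 0, with no background correction, normexp, the authors' values, either stricter detection filter, the brightest probe per gene, array weights and trended robust variance. Between the lines with doxycycline it was 0, against 2, with the fold limit alone. Without doxycycline it was 0, against 2, with median scaling, with only the groups compared and with the fold limit, and 1 with no filter on dim probes. Calls over all probes moved as well. For doxycycline in the shRNA-labelled line, 1548 were higher and 1548 lower with array weights, against 976 and 702. In the control line 595 and 810 were called with median scaling, against 1245 and 1287. The replicate block and the unfiltered fit, with member counts of 2, called fewer of all probes there. With the fold limit the calls were 81 and 16 in the shRNA-labelled line and 27 and 39 in the control line. Each setting that called CD44 for the difference of the responses called more of all probes. Each that gave a smaller member count between the lines called fewer. Leaving out 1 array gave member counts of 0 to 1 for doxycycline in the shRNA-labelled line, 1 to 2 in the control line, 0 to 1 for the difference, 2 to 2 between the lines with doxycycline and 0 to 2 without it. Where the first of these was 0, calls over all probes were 567 higher and 297 lower, or 616 and 278. With the replicate block, CD44 on ILMN_1803429 passed in the control line (-0.54, adjusted p = 0.0446) and between the untreated lines (-0.57, adjusted p = 0.0399), while 4 of 12 arrays correlated best with their own number. With a fold limit of 1.5, 1 of the crypt and Wnt genes was called in the control line, against 10. Calls over all probes fell there too, as given above. The cause of these moves was not tested. Signals near background, as for ALCAM, EPHB3, OLFM4 and the third CD44 probe, limit what can be said of those probes.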
